A study of Mus musculus with 10 samples.

Results

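The 8 genes described here encode proteins of the red cell membrane and carriers of blood group antigens: Slc4a1, Epb42, Ank1, Sptb, Rhag, Rhd, Kel and Ermap. They were listed by name, with earlier results of these data known, and all 8 were found among the 55359 genes of the expression table. They were measured by bulk RNA-seq of lineage-negative (Lin-) bone marrow cells, that is, marrow from which mature blood cells had been depleted with a lineage antibody kit. The question was how the transcriptome of these cells differs when Dhx9, an RNA and DNA helicase, is deleted in blood cells. The control group was 5 Dhx9f/f mice (WT) and the other group 5 Dhx9f/f;MX1 mice (cKO), with 1 library per replicate. Both groups carried the floxed Dhx9 allele, so WT here means floxed without Cre. In the cKO group Cre was driven by the interferon-inducible Mx1 promoter and was switched on with poly(I:C), which itself provokes an interferon response and acts in tissues other than blood. The sources used here do not say if the WT mice of these libraries also received poly(I:C), or how old each mouse was. One label field calls the second group a knock down.

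The targeted gene went against the labels. Dhx9 lay between 65.43 and 72.42 FPKM (fragments per unit of gene length, scaled to the mapped fragments of the library) in the libraries labelled WT and between 130.82 and 156.49 FPKM in those labelled cKO, 2.01 times as high in the mean, which is opposite to a deletion. A value for the whole gene does not separate the floxed exons from the rest, so it does not settle the labels. Groups are therefore named by their labels, and a direction means libraries labelled cKO over libraries labelled WT. The libraries held 13791299 to 18822217 fragments, and the members rested on about 515 fragments (Epb42, in its lowest library) to 19304 fragments (Ermap, in its highest). Xist was above 1 FPKM in WT 3, WT 4 and WT 5 and below it in the other 7 libraries, so sex-linked transcripts were unevenly spread between the groups. The Y-linked gene Ddx3y was at 0.05 FPKM or less in WT 3, WT 4 and WT 5 and at 19.66 FPKM or more in the other 7 libraries.

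The mature red cell owes its shape and elasticity to a net of spectrin tetramers beneath the lipid bilayer. Ankyrin ties this net to the anion exchanger band 3, and a second set of contacts at the actin junctions ties it to glycophorins and other proteins. Band 3, the Rh proteins and their partners sit together in large complexes that carry many of the blood group antigens, and loss of band 3, ankyrin or spectrin causes hereditary spherocytosis. Genes of this group are switched on in erythroid precursors, largely under the transcription factors Gata1 and Klf1, and most of their products accumulate late, together with haemoglobin.

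The sequence before the transcription start is shown first because it held letters that the Gata factors are known to bind. AGATAA stood in it for 3 of the 6 members that had an entry in the RefSeq promoter table, against 11.2% of all promoters. With TGATAA as well, a wider motif, it was 5 of the 6, against 18.6% of all promoters. Each line gives bases upstream of the RefSeq start, 5′ to 3′ along the gene, with these letters or their reverse complement in capitals. For Epb42 the 55 bases outside the annotated gene are shown, and for the other genes 250 bases.

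Kel: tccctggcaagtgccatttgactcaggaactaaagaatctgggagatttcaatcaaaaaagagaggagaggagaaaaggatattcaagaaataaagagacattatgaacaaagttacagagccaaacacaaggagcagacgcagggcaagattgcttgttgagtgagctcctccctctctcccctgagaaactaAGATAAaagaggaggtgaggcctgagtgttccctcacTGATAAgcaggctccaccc
Rhd: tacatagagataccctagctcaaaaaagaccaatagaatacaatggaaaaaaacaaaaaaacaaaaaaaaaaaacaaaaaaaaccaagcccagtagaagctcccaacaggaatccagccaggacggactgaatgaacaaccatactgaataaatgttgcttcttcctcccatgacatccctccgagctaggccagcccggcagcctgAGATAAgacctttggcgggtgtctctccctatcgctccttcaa
Rhag: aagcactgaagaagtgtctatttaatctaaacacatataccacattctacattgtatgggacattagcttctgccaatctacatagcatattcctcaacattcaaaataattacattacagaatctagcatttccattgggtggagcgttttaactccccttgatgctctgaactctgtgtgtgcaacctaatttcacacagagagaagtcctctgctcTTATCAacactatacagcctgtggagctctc
Ermap: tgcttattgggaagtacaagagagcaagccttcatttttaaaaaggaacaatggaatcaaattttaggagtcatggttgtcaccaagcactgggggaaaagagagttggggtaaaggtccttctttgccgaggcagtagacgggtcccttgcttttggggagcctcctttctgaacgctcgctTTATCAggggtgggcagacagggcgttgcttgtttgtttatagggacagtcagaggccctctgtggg
Epb42: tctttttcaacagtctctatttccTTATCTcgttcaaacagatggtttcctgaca

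The windows came from a table built on GRCm38.p6 and were placed by exact match on GRCm39, the build of the expression table. They lie at chr6:41681260-41681509 on the minus strand (Kel), chr4:134591597-134591846 on the plus strand (Rhd), chr17:41121790-41122039 on the plus strand (Rhag), chr4:119047193-119047442 on the minus strand (Ermap) and chr2:120867554-120867608 on the minus strand (Epb42). The 55 bases shown for Epb42 end where the annotated gene begins, and its RefSeq start lies 195 bases inside the gene. The Kel, Rhd, Rhag and Ermap windows run 2 to 23 bases into the annotated gene. AGATAA, searched on both strands of the window from 250 bases before to 50 bases after the start, was found in Kel, Rhd and Epb42, and in 11.2% of the 32851 promoters of the table. AGATAA or TGATAA was found in Kel, Rhd, Rhag, Ermap and Epb42, and in 18.6% of all promoters. In Kel the 2 matches began 56 and 19 bases before the start, in Rhd the match began 43 bases before it, in Rhag 31 and in Ermap 67. The CACCC box, written CCNCNCCC and known as the kind of site that Klf1 binds, was found in Rhd and Sptb and in 49.5% of all promoters. The E-box CANNTG, which reads the same on both strands, was found in Epb42, Kel, Rhd and Sptb and in 72.3% of all promoters. These matches describe letters in the windows and were not tested for binding. Slc4a1 and Ank1 had no entry.

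All 8 members were expressed in every library, and all 8 had a higher mean in the libraries labelled cKO. Over all genes tested, 8192 of 18742 had a positive log2 fold change. Slc4a1, Sptb and Ank1 rose by more than 2-fold, with no overlap between the groups. How many of all genes tested showed no overlap was not counted, so a lack of overlap, here and below, is a description only. Epb42, Kel, Rhd and Ermap were higher by 1.47-fold to 1.76-fold in means, with overlapping groups, and Rhag varied too widely to be placed. By limma on log2(FPKM + 0.1), with Benjamini-Hochberg adjustment over all genes tested, genes had to reach 2-fold and an adjusted p below 0.05 to be called. By that rule 3 of 8 members were called higher and 0 lower, against 4.6% of the 18742 genes tested called higher and 16.8% called lower. On adjusted p alone, 7 of 8 members were higher, against 16.7% of all genes tested, and 0 were lower, against 28.3%. The median log2 fold change was 0.77 over the members and -0.11 over all genes tested, a gap of 0.88. Quantile normalization raised the median of all genes by 0.19 and changed the split of calls from 862 higher and 3153 lower to 1482 higher and 2342 lower, and the members' median of 0.78 then lay 0.70 above that of all genes. Every log2 fold change below is a difference of log2(FPKM + 0.1) means. The p-values set a difference between the groups against the spread between these libraries. In a bulk sample, more cells of a type and more RNA per cell cannot be told apart.

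**Figure D1:**
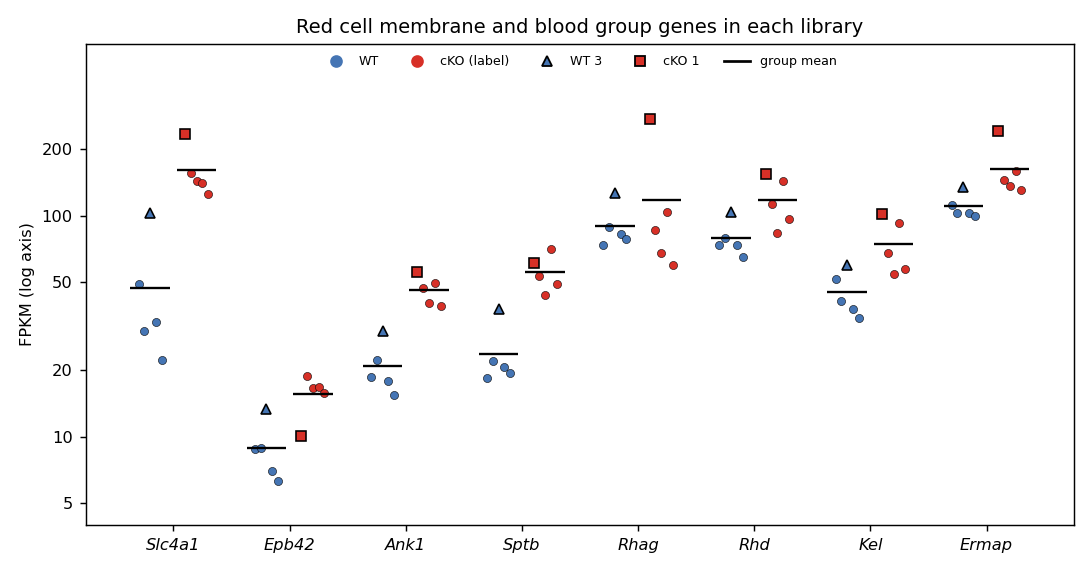
FPKM of the 8 genes (log axis) in each library, WT in blue and the libraries labelled cKO in red, with the group mean as a line. Replicate 3 of WT (triangle) was the highest WT library for all 8 genes, and replicate 1 of cKO (square) was the highest of its group for 6 genes and the lowest for Epb42.

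Slc4a1 (ENSMUSG00000006574, chr11:102239650-102257029, minus strand) encodes band 3, the chloride-bicarbonate exchanger and the most abundant membrane protein of red cells. In WT replicates 1 to 5 it measured 49.04, 30.21, 102.69, 32.98 and 22.32 FPKM. Replicates 1 to 5 labelled cKO measured 236.03, 157.04, 143.92, 141.54 and 125.43 FPKM. Every library labelled cKO was above every WT library, and WT 3 and cKO 1 stood well above the rest of their groups. The means were 47.4 ± 32.4 and 161 ± 43.5 FPKM (SD, n = 5 each), and the log2 fold change was 1.94 with a standard error of 0.35 (limma, adjusted p = 0.00125). This was the largest difference among the members.

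Epb42 (ENSMUSG00000023216, chr2:120848372-120867553, minus strand) encodes the membrane protein that binds band 3 and ankyrin and is related to transglutaminases without having their activity. Its WT values were 8.79, 8.96, 13.37, 7.05 and 6.33 FPKM. Its values in the libraries labelled cKO were 10.08, 18.88, 16.62, 16.8 and 15.89 FPKM. The low value was that of cKO 1, the library with the highest Slc4a1, and it fell within the WT range, while the other 4 lay above all WT libraries. The log2 fold change was 0.83 with a standard error of 0.21 (limma, adjusted p = 0.00892), short of 2-fold. Epb42 was the member with the lowest level per length in both groups.

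Ank1 (ENSMUSG00000031543, chr8:23464860-23640513, plus strand) encodes ankyrin, the link between band 3 and spectrin. Its WT values were 18.61, 22.27, 30.15, 17.87 and 15.41 FPKM, and its values in the libraries labelled cKO were 55.61, 47.04, 40.39, 49.82 and 39.28 FPKM. The groups did not overlap, and WT 3 was the WT library nearest to the other group. The log2 fold change was 1.18 with a standard error of 0.17 (limma, adjusted p = 3.31e-04). An antisense transcript, Gm15816, shares 862 bp of its exons and was listed at no more than 6.81 FPKM.

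Sptb (ENSMUSG00000021061, chr12:76627247-76757321, minus strand) encodes the erythroid beta-spectrin chain. Its WT values were 18.49, 22.05, 37.97, 20.68 and 19.53 FPKM, and its values in the libraries labelled cKO were 61.48, 53.53, 43.92, 70.53 and 49.47 FPKM. The groups did not overlap, although WT 3 came near the lowest library labelled cKO. The log2 fold change was 1.26 with a standard error of 0.20 (limma, adjusted p = 4.89e-04).

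Rhag (ENSMUSG00000023926, chr17:41122017-41151645, plus strand) encodes the Rh-associated glycoprotein, a channel for ammonia that the Rh antigen proteins need to reach the membrane. Its WT values were 73.99, 89.57, 127.35, 83.15 and 78.4 FPKM. Its values in the libraries labelled cKO were 274.47, 86.75, 68.03, 103.97 and 59.92 FPKM. A single library, cKO 1, stood at 3.45 times the mean of the other 4 of its group, and those 4 lay across the WT range and below it. The log2 fold change was 0.17 with a 95% interval from -0.61 to 0.96 (limma, adjusted p = 0.722). Without cKO 1 it was -0.19 (limma, adjusted p = 0.444), so its direction rested on that library.

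Rhd (ENSMUSG00000028825, chr4:134591845-134623487, plus strand) encodes the Rh blood group protein of the mouse. WT libraries gave 74.15, 79.29, 103.88, 74.13 and 65.19 FPKM, and its values in the libraries labelled cKO were 154.85, 113.42, 83.53, 143.74 and 96.47 FPKM. The groups overlapped, since WT 3 lay above cKO 3 and cKO 5. Its log2 fold change was 0.56 with a standard error of 0.18 (limma, adjusted p = 0.0252). The adjusted p of the limma fit passed 0.05 when WT 1, WT 4, WT 5 or cKO 4 was left out, up to 0.0628, and was 0.0566 after quantile normalization. Rhd shares 223 bp, 13.2% of its exons, with Tmem50a on the opposite strand, which stood at 53.77 to 114.18 FPKM. Use of strand in the counting is not stated in the sources used here, so reads of the shared bases cannot be told apart.

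Kel (ENSMUSG00000029866, chr6:41663264-41681273, minus strand) encodes the Kell antigen carrier, a zinc endopeptidase held by a disulfide bond to the product of Xk. In WT libraries the values were 52.08, 41.08, 60.09, 37.85 and 34.53 FPKM, and its values in the libraries labelled cKO were 102.22, 67.88, 54.78, 92.46 and 57.83 FPKM. WT 3 lay above cKO 3 and cKO 5, and the other WT libraries lay below all libraries labelled cKO. Kel had a log2 fold change of 0.72 with a standard error of 0.20 (limma, adjusted p = 0.0145). Xk moved by the same amount, with a log2 fold change of 0.72 (limma, adjusted p = 0.00173) and no overlap between the groups. The opposite-strand gene Llcfc1, which shares 247 bp with the exons of Kel, was listed at no more than 0.24 FPKM.

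Ermap (ENSMUSG00000028644, chr4:119032654-119047208, minus strand) encodes the erythroblast membrane-associated protein, a butyrophilin-like molecule that carries the Scianna antigens. It had the highest mean level per length of the 8 members in both groups. The WT libraries held 111.75, 103.38, 135.35, 103.35 and 100.35 FPKM, and its values in the libraries labelled cKO were 241.25, 145.14, 135.95, 160.39 and 131.24 FPKM. The overlap was narrow, since WT 3 lay above cKO 5 alone. Its log2 fold change was 0.53 with a standard error of 0.16 (limma, adjusted p = 0.0190), the smallest among the 7 members that passed on adjusted p alone.

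A covariate for the uneven spread of Xist kept the direction of all 8 members and raised the adjusted p of 7, all except Rhag. It was set by Xist above 1 FPKM, and so marked WT 3, WT 4 and WT 5 and no library labelled cKO. The fold changes of that fit therefore set the libraries labelled cKO against WT 1 and WT 2 alone, which is not a balanced adjustment for sex. With the covariate in the limma fit, Slc4a1, Sptb and Ank1 kept log2 fold changes of 2.02, 1.44 and 1.17, with adjusted p of 0.0127, 0.00390 and 0.00586. In the same limma fit the adjusted p was 0.0705 for Epb42, 0.0776 for Ermap, 0.0968 for Rhd and 0.106 for Kel, with log2 fold changes of 0.78, 0.56, 0.59 and 0.65. The number passing on adjusted p alone was then 3 of 8 rather than 7 of 8.

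**Figure D2:**
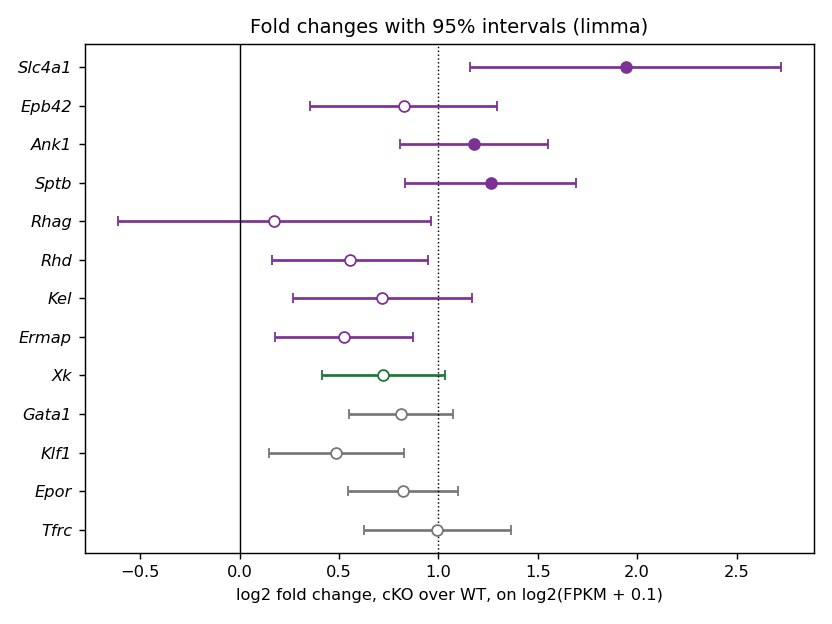
Log2 fold change, libraries labelled cKO over WT, with the 95% interval from limma, for the 8 members (purple), the partner gene Xk (green) and 4 early erythroid genes (grey). Filled points were called higher, and the dotted line marks a 2-fold difference; Slc4a1 lies farthest to the right and the interval of Rhag spans 0.

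In WT libraries the order of mean level per length was Ermap, Rhag, Rhd, Slc4a1, Kel, Sptb, Ank1 and Epb42. In the libraries labelled cKO it was Ermap, Slc4a1, Rhag, Rhd, Kel, Sptb, Ank1 and Epb42, so that Slc4a1 moved from rank 4 to rank 2. The ranges of neighbours overlapped in both orders except between Ank1 and Epb42. Among WT libraries Slc4a1 was above Kel in WT 3 alone, and its median of 32.98 FPKM was below the 41.08 FPKM of Kel. Among the libraries labelled cKO, Rhag was above Rhd in cKO 1 alone. Ermap and Slc4a1 had nearly equal means in the libraries labelled cKO, at 163 ± 45.2 and 161 ± 43.5 FPKM (SD, n = 5 each), whereas in WT libraries Ermap was above Slc4a1 in all 5.

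The libraries WT 3 and cKO 1 stood apart for many members. WT 3 was the highest WT library for all 8 genes, from 1.29 times the mean of the other 4 for Ermap to 3.05 times for Slc4a1. The late erythroid genes (globins, Alas2, Bpgm and Slc25a37) were also highest there among WT libraries, with a summed level of 1013.1 FPKM against a lowest WT sum of 251.06 FPKM. cKO 1 was the highest of its group for 6 members but stood at 0.591 times the mean of the other 4 for Epb42. It also had the highest summed level of neutrophil genes in its group, 2598.86 FPKM against a lowest of 147.03 FPKM. Their part in the results was not tested, beyond leaving each library out. Without cKO 1, the mean of Rhag was 79.7 ± 19.7 FPKM (SD, n = 4), and without any single library Slc4a1, Sptb and Ank1 remained called.

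Markers of the cells that Lin- marrow can hold differed between the groups. The summed level of 4 early erythroid genes (Gata1, Klf1, Epor and Tfrc) was 232.63 to 387.97 FPKM in WT libraries and 455.35 to 569.55 FPKM in those labelled cKO. The late erythroid sum was 251.06 to 1013.1 FPKM and 1473.34 to 2607.06 FPKM, and 5 of its 7 measured genes were called higher. The sums of 8 other marker lists were lower in the libraries labelled cKO without overlap: of 9 stem and progenitor genes 6 were called lower, of 8 monocyte genes 8, of 11 neutrophil genes 4, of 9 megakaryocyte genes 9 and of 8 mast cell, basophil and eosinophil genes 7. The neutrophil genes did not move one way: Elane, Mpo, Prtn3 and Ctsg were called lower, while Ngp and S100a9, named after their values were seen, were at 317.58 and 894.75 FPKM in cKO 1 against at most 19.69 and 93.11 FPKM in WT libraries, and neither was called. The lists of B cells, T and NK cells, and stroma gave 2 of 5, 5 of 8 and 5 of 7 called lower. No matched marker was at 0 in every library, Ahsp and Vpreb1 were not matched, and the part of this shift in the members' differences was not tested.

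The members were therefore also set against the early erythroid genes of the same library, as the log2 level minus the mean log2 level of Gata1, Klf1, Epor and Tfrc. On that scale Slc4a1, Sptb and Ank1 were higher in the libraries labelled cKO, and the other 5 members gave no difference past the test. Slc4a1 went from a mean of -0.72 ± 0.65 to 0.44 ± 0.33 (SD, n = 5 each), a difference of 1.16. Sptb went from -1.55 ± 0.20 to -1.07 ± 0.18, a difference of 0.48, and Ank1 from -1.72 ± 0.11 to -1.32 ± 0.14, a difference of 0.40. Only for Ank1 did the groups not overlap. Each of the 3 had an adjusted p of 0.0423 in a two-sided exact permutation test, adjusted over the 8 members. The smallest unadjusted p this exact test allows is 0.00794 with 5 libraries a group. The reference genes themselves had log2 fold changes of 0.81 (Gata1), 0.49 (Klf1), 0.82 (Epor) and 0.995 (Tfrc). The size of these differences, and their direction, can therefore depend on the reference genes chosen. The 7 measured late erythroid genes had a median log2 fold change of 2.67 (range 0.57 to 2.90), against at most 1.94 among the members. The members were not set against those late genes.

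Among the other members, Rhag differed from the early genes by -0.60 between the groups, Ermap by -0.25 and Rhd by -0.22, each with an adjusted p of 0.201 in the exact permutation test. Kel and Epb42 differed by -0.061 and 0.047, with adjusted p of 0.853 and 0.857 in the exact permutation test. Without cKO 1 the differences for Rhag, Ermap and Rhd were -0.96, -0.39 and -0.32, each with an adjusted p of 0.0317 in the exact permutation test. Without any other single library the adjusted p of that exact test was above 0.05 for all 3, up to 0.381 for Rhag and Ermap and 0.413 for Rhd. For Slc4a1, Sptb and Ank1 the adjusted p of the exact permutation test rose to 0.0635 in 8 of the 10 fits that left out 1 library, all except those without cKO 1 and without WT 3. With 4 libraries against 5 the smallest p of that exact test is 0.0159.

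**Figure D3:**
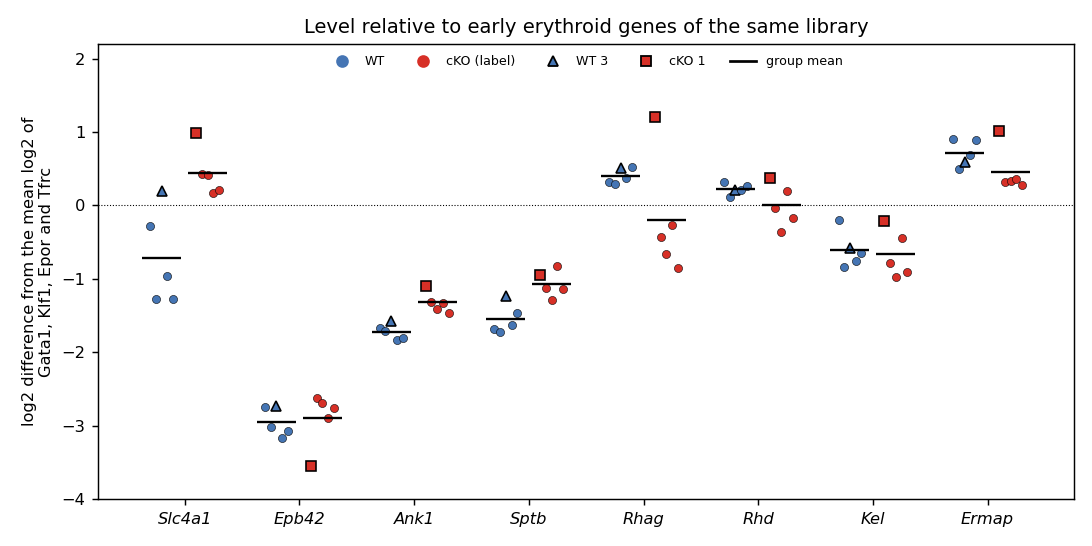
Log2 level of each member minus the mean log2 level of Gata1, Klf1, Epor and Tfrc in the same library, by group, with group means as lines. Slc4a1, Sptb and Ank1 sit higher in the libraries labelled cKO by 1.16, 0.48 and 0.40, and cKO 1 (square) lies apart for Rhag, Ermap and Epb42.

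Ratios between members that act together were compared in 8 pairs, in which a scaling of the whole library cancels. The ratio of Slc4a1 to Epb42, 2 proteins of 1 complex, had a log2 value of 1.74 to 2.93 in WT libraries and 2.97 to 4.54 in those labelled cKO. The groups did not overlap, and the difference was 1.12 (two-sided exact permutation test, p = 0.00794, adjusted p = 0.0635 over 8 pairs). The upper end was cKO 1, without which the difference was 0.82 with an adjusted p of 0.0423 in the exact permutation test. The ratio of Slc4a1 to Ank1 differed by 0.76 (adjusted p = 0.127, exact permutation test), with WT 3 inside the range of the other group. Without WT 3 the 2 ratios differed by 1.29 and 0.95, each with an adjusted p of 0.0317 in the exact permutation test. Without any of the other libraries the adjusted p of that exact test stayed above 0.05, up to 0.127 for Slc4a1 to Epb42 (cKO 1 excepted) and 0.286 for Slc4a1 to Ank1.

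The other pairs gave smaller differences. Sptb to Ank1 differed by 0.085 (adjusted p = 0.526, exact permutation test). Kel to Xk differed by -0.0056 (adjusted p = 0.968, exact permutation test), with WT ratios of 0.97 to 1.42 and ratios of 1.05 to 1.31 in the libraries labelled cKO. Rhd to Rhag and Ermap to Rhag differed by 0.38 and 0.35, each with an adjusted p of 0.275 in the exact permutation test. Without cKO 1, where Rhag was far above Rhd, these differences were 0.64 and 0.56, each with an adjusted p of 0.0423 in the exact permutation test. Without any other single library the adjusted p of that exact test was above 0.05 for both, up to 0.519.

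The members rose and fell together across libraries to differing degrees. As a description over 10 libraries, after subtraction of the group means, Pearson's r of log2 levels was 0.97 between Ermap and Rhag, 0.92 between Kel and Rhd and 0.88 between Sptb and Ank1. Epb42 had lower r, at -0.20 with Ermap, -0.30 with Rhag and 0.45 with each of Slc4a1, Sptb and Ank1. In cKO 1 Epb42 was at the lowest level of its group where Ermap and Rhag were at their highest, whereas in WT libraries all 3 were highest in WT 3. These points share library, depth and the mix of cells. The genes with the pattern most like the mean of the z-scored members, among 10335 genes averaging 1 FPKM or more, included Abcg4, Rnf123 and Smpd4, with r of 0.98 to 0.99 over 10 libraries. After subtraction of the group means they included Abcg4, Rnf123 and Tspan33, with r of 0.96 to 0.97. Abcg4, a membrane transporter, averaged 11.5 ± 2.95 FPKM in WT and 19.6 ± 4.44 FPKM in the libraries labelled cKO (SD, n = 5 each).

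Of 12 genes of the junctional complex and spectrin net, 4 were called higher and 0 lower, with a median log2 fold change of 0.59. Among those called were Tmod1, which caps actin filaments, Mpp1, a membrane scaffold, and Epb41, which joins spectrin to actin. Tmod1 rose from 0.784 ± 0.552 to 4.7 ± 1.87 FPKM, Mpp1 from 24.98 ± 0.779 to 55.8 ± 13.7 FPKM and Epb41 from 18.8 ± 1.75 to 40.5 ± 6.77 FPKM (SD, n = 5 each). The log2 fold changes were 2.53, 1.13 and 1.09 (limma, adjusted p = 5.85e-04, 1.32e-04 and 9.54e-05). Actb, cytoplasmic actin and the most abundant gene of the list, had a log2 fold change of -0.25 (limma, adjusted p = 0.134).

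Of 18 partners of band 3 and the Rh proteins and other membrane transporters, 17 could be tested, of which 3 were called higher and 1 lower, with a median of 0.34. Car1, a carbonic anhydrase and the most abundant gene of the list, rose by 1.84 on the log2 scale (limma, adjusted p = 1.15e-04), and the exporter Abcg2 by 1.41 (limma, adjusted p = 1.40e-04). The glucose transporter Slc2a1 fell by 1.28 (limma, adjusted p = 0.00319), with means of 3.32 ± 0.631 and 1.38 ± 0.534 FPKM (SD, n = 5 each). Icam4, another partner in the Rh complex, was listed at 0 in all libraries.

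Of 16 other carriers of blood group antigens, 15 could be tested, of which 3 were called higher and 2 lower, with a median of 0.12. The complement regulators Cd55 and Cd59a rose by 1.95 and 1.60 on the log2 scale (limma, adjusted p = 1.31e-04 and 0.00350). The water and glycerol channel Aqp3 was at 0.07 to 0.25 FPKM in WT libraries and 0.95 to 12.56 FPKM in those labelled cKO, a log2 fold change of 3.34 (limma, adjusted p = 0.00103). Its WT values were near the level of 3 fragments in a 1000 bp gene, 0.159 to 0.218 FPKM. Slc44a2, a choline transporter-like protein, fell by 1.33 on the log2 scale (limma, adjusted p = 3.80e-05), and Emp3 fell by 1.20 (limma, adjusted p = 7.88e-05). Bsg, the carrier of the Ok antigen and the most abundant of the list, had a log2 fold change of 0.46 (limma, adjusted p = 0.00523).

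Of 7 glycosyltransferases that build blood group sugars, 3 were expressed enough to be tested. B4galnt2 rose from 2.25 ± 0.346 to 6.65 ± 1.24 FPKM, and Gcnt2, which makes branched I antigen, fell from 4.84 ± 0.610 to 1.07 ± 0.402 FPKM (SD, n = 5 each). Their log2 fold changes were 1.52 and -2.14 (limma, adjusted p = 9.37e-05 and 1.05e-04). Abo was listed at 0 in all libraries.

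Of 16 paralogs of the members that are used mainly in other cells, 8 could be tested, of which 0 were called higher and 3 lower, with a median of -0.57. Sptbn1, the beta-spectrin of non-erythroid cells, averaged 16.6 ± 1.999 FPKM in WT and 3.85 ± 1.94 FPKM in the other group (SD, n = 5 each), and its log2 fold change was -2.23 (limma, adjusted p = 3.38e-04), whereas Sptb rose. F13a1, the coagulation factor subunit of the transglutaminase family, fell by 4.09 on the log2 scale (limma, adjusted p = 0.00197), and Ece1, an endopeptidase related to Kel, fell by 1.18 (limma, adjusted p = 3.22e-04). Slc4a2, the anion exchanger of many cell types, had a log2 fold change of -0.64 (limma, adjusted p = 0.00180), short of 2-fold, and Tgm2 one of 0.74 (limma, adjusted p = 0.0249). The ammonia transporter paralog Rhbg was listed at 0 in all libraries.

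**Figure D4:**
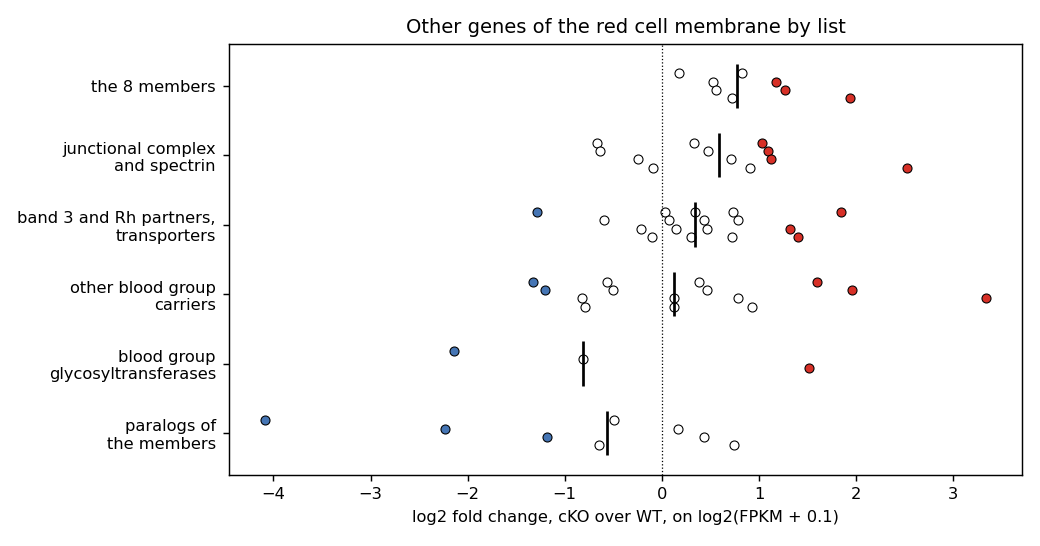
Log2 fold change, libraries labelled cKO over WT, of each tested gene of 6 lists, with the list's median as a vertical line, and genes called higher in red, called lower in blue and not called in white. The medians run from 0.77 for the 8 members to -0.81 for the glycosyltransferases, of which 3 were tested.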

How the data were processed

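Per the submitters' processing notes, cutadapt 1.9.1, HISAT2 2.0.1 and HTSeq 0.6.1 were used with GRCm39, and the paired reads of 150 bases were aligned with HISAT2. The authors deposited 1 FPKM value for each gene in each library, given to 2 decimals. The annotation, the gene lengths and the use of strand are not given in the sources used here. FPKM are not counts, so a count model was not the test. Depth was recovered from genes with a single transcript, whose values were whole fragments within 0.2 of a whole number for 95.2 to 96.6% of values of up to 20 fragments, against 40% by chance. The floor, 3 fragments, equals 0.159 to 0.218 FPKM for a 1000 bp gene. These cover counting error only.

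In R 4.3.3, limma 3.58.1 (lmFit, then eBayes with trend) was applied to log2(FPKM + 0.1) in the 5 WT and 5 cKO libraries, and p-values of the 18742 genes averaging 0.1 FPKM or more were adjusted by Benjamini-Hochberg. Ratios were compared by exact two-sided permutation test (scipy 1.17.1). The members and lists were chosen with earlier results of these data known. From each list of other genes the called genes averaging 1 FPKM or more were named, up to 4 by size of change, with the most abundant gene, and also all genes of the pairs and paralogs with a mean of at least 1 FPKM. Emp3, Icam4, Abo and Rhbg were named after their values were seen. Some genes and ratios that these rules name are not reported here. Alternatives were pseudocounts of 0.01 and 1, either no filter or one at 1 FPKM, 3 scalings, eBayes without trend, a block for the replicate number, a covariate for Xist, adjusted p alone, each library left out, a reference of Gata1 and Klf1 alone and a wider motif. Coordinates are those of GRCm39, and promoter sequences are from RefSeq.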

Additional observations from a re-analysis of the deposited data

Results flagged for a closer look

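Within groups of 5 libraries, a value was singled out where its gap to the nearest other value, over the range of the group, was above 0.71. Of 102 such groups of named genes and ratios 10 were singled out, and 8 of the 10 were in cKO 1. Chance gives about 5.1 for independent groups with a normal spread. These groups share genes and libraries, so the comparison cannot show an excess. In cKO 1, Rhag was at 274.47 FPKM against 59.92 to 103.97 FPKM in the other 4 libraries of its group, Ermap at 241.25 FPKM against 131.24 to 160.39 FPKM, and Slc4a1 at 236.03 FPKM against 125.43 to 157.04 FPKM. Klf1, a transcription factor of erythroid cells, was instead at its lowest there, 95.19 FPKM against 122.68 to 132.63 FPKM. The log2 ratio of Slc4a1 to Epb42 was 4.54 in cKO 1 against 2.97 to 3.11, and that of Rhd to Rhag was -0.83 against 0.30 to 0.69. Relative to the early erythroid genes, Rhag was at 1.21 in cKO 1 against -0.86 to -0.27 on the log2 scale, and Ermap at 1.02 against 0.27 to 0.36. Outside that library, Sptb was at 37.97 FPKM in WT 3 against 18.49 to 22.05 FPKM in the other WT libraries. Aqp3 was at 12.56 FPKM in cKO 4 against 0.95 to 3.78 FPKM in the other libraries labelled cKO.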

How the results depend on the processing

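Slc4a1, Sptb and Ank1 were called higher in all 20 other fits, and all 8 members were higher in 19 of them, the exception being Rhag at -0.19 without cKO 1 (up to 0.36 without another library). The genes called higher and lower numbered 862 and 3153, and 356 and 1486 with a pseudocount of 1, 462 and 1827 with a mean of at least 1 FPKM (fewer genes tested), 1482 higher with quantile normalization (2342 lower) and 3138 and 5300 on adjusted p alone. On adjusted p alone, 7 members passed (Ermap 0.53, Kel 0.72, Rhd 0.56 and Epb42 0.83 added). Of the 69 partner genes, not all of which could be tested, 25 were then higher and 14 lower, rather than 11 and 7. Over all genes tested, the shares on adjusted p alone were 16.7% higher and 28.3% lower, rather than 4.6% and 16.8%. Dhx9 fell just short of 2-fold, at 0.99 with a pseudocount of 1, 0.96 with an equal sum per library, 0.89 with quantile normalization and 0.98 with the Xist covariate, and was at 0.96 to 1.02 with libraries left out.

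Whether replicate numbers pair the libraries was not settled: the correlation of deviations between libraries of the same number was low, at -0.077 to 0.19, yet 3 of 5 numbers correlated best with their own. With the replicate number as a block, limma called 857 genes higher and 3107 lower, and the adjusted p of Rhd was 0.0526. In the ratios the block allows no exact p under 0.0625. The differences from the early erythroid genes of Slc4a1 (1.16), Sptb (0.48) and Ank1 (0.40) had an adjusted p of 0.25 in the exact sign-flip test. For Sptb, replicate 3 went the other way, at -1.29 in cKO 3 and -1.24 in WT 3.

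Near 0, the Kel to Xk ratio was 0.0082 with a pseudocount of 1, and differences from the early genes were -0.0063 for Epb42 with a pseudocount of 1 and 0.068 for Kel against Gata1 and Klf1 alone. With each library left out, the ranges were -0.059 to 0.053 for Kel to Xk, 0.26 to 0.64 for Rhd to Rhag, 0.82 to 1.29 for Slc4a1 to Epb42, 0.62 to 0.95 for Slc4a1 to Ank1 and 0.23 to 0.56 for Ermap to Rhag. For the differences from the early genes they were -0.39 to -0.21 for Ermap, -0.17 to 0.042 for Kel, -0.32 to -0.13 for Rhd, -0.96 to -0.44 for Rhag, 1.02 to 1.39 for Slc4a1, -0.023 to 0.21 for Epb42, 0.42 to 0.56 for Sptb and 0.34 to 0.44 for Ank1. With TGATAA as well as AGATAA, 5 rather than 3 members held a match. The cause of these shifts was not tested.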
